A study of Mus musculus with 11 samples.

Results

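Among 14272 genes measured in a murine model of melanoma progression, 61 genes were far lower in the 2 mesenchymal-like lines, 4C and 4C11−, than in the 2 epithelial lines, melan-a and 4C11+. Most of them, 47, had 3 reads or fewer in each 4C and 4C11− library, and their epithelial values ran from 0.87 to 9.46 on a log2 scale. They range from Mitf, the master transcription factor of melanocytes, to Car6, a secreted carbonic anhydrase, and Nrcam, a neuronal cell adhesion molecule. A gene was taken when the lowest of its 5 melan-a and 4C11+ values was above 0 and at least 4 log2 units above the highest of its 6 4C and 4C11− values. The thresholds were met by 67 genes, which is 0.469% of all genes. Of these, 6 (Cdh2, Dct, Tyrp1, Sox10, Mlana and Rab38) are left out here, as are Tyr and Pmel, which did not meet the thresholds. The difference between the epithelial and mesenchymal-like libraries chose the genes, so it is given for them as a description, with no test.

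Total RNA was sequenced after depletion of ribosomal RNA with Ribo-Zero Gold in a stranded library preparation. Melan-a is a spontaneously immortalized line of nonmalignant melanocytes, and repeated cycles in which it was kept from anchoring gave rise to 4C, 4C11− and 4C11+. The study describes 4C as premalignant melanocytes, 4C11− as nonmetastatic melanoma cells and 4C11+ as metastatic melanoma cells. All lines were grown in RPMI with fetal bovine serum. Melan-a alone also received 200 nM of the phorbol ester PMA, an activator of protein kinase C, so the effects of PMA and of the line cannot be told apart. Each condition is a single cell line, and replicates of it gave 3 libraries each of 4C, 4C11− and 4C11+. Melan-a has 2 libraries, named replicates 2 and 3, and its replicate 1 was not analysed here. The spread between libraries, and every p-value below, is therefore that between replicates of one line. The methods of the study describe triplicates of each line and do not say whether these were separate cultures. Values are log2 CPM as deposited, that is read counts relative to the size of the library, which share their highest value across libraries as after a quantile normalization. In bulk RNA, fewer cells of a type and less RNA per cell cannot be told apart.

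Melanocytes arise from the neural crest, as do Schwann cells and other glia, and the lineages share SOX10, ERBB3 and several adhesion molecules. MITF, together with SOX10, drives genes for pigment synthesis and for the melanosome, a lysosome-related organelle. Melanoma cells are known to move between a differentiated, MITF-high state and an undifferentiated, invasive state, a change often compared to the epithelial-mesenchymal transition.

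The promoter windows of 4 of the genes follow, because they stand for the main patterns in the data. Car6 had the widest gap between the groups, Nrcam is the adhesion molecule with the widest gap after Gjc3, Mc1r differed little in its mean between the epithelial lines, and Tspan10 differed most between them. Each window runs from 250 bases before to 50 bases after a transcription start in RefSeq (GRCm38.p6), 5′ to 3′ on the strand of the gene. Capitals mark CACGTG and CATGTG, E-boxes of the kind bound by MITF, and CACCTG, the kind bound by ZEB and SNAI proteins, read on either strand.
Car6: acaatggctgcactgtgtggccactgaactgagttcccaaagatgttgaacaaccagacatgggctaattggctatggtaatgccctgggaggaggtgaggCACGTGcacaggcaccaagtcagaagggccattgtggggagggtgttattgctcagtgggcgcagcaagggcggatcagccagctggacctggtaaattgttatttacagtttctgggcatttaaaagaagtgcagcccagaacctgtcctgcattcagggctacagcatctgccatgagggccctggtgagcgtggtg
Nrcam: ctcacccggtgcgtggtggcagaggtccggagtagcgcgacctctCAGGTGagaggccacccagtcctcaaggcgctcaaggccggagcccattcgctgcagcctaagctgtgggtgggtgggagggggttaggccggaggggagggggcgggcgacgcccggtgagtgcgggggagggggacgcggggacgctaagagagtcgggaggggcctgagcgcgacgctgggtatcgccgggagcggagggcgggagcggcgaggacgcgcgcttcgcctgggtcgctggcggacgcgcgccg
Mc1r: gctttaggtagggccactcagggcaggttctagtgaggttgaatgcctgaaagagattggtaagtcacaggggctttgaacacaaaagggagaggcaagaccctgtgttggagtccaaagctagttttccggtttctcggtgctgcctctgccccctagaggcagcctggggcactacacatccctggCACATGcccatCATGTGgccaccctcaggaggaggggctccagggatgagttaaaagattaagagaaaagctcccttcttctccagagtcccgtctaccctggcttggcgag
Tspan10: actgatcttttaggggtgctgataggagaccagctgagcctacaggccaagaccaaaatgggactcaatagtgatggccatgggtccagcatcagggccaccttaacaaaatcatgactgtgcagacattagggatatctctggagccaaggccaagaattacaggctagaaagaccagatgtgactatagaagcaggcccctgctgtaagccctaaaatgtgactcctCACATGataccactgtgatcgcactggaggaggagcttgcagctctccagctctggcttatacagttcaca
The Car6 window, chr4:150201086-150201385 on the minus strand, holds CACGTG starting 149 bases before the start and 4 CpG. The Nrcam window, chr12:44328635-44328934 on the plus strand, holds CAGGTG, the reverse complement of CACCTG, at 205 bases before the start, and 37 CpG. In the Mc1r window, chr8:123406832-123407131 on the plus strand, CACATG lies 62 bases and CATGTG 51 bases before the start, among 4 CpG. The Tspan10 window, chr11:120442381-120442680 on the plus strand, has CACATG 21 bases before the start and 1 CpG.

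The 2 melan-a libraries differed from each other, and 4C11+ replicate 3 differed from 4C11+ replicates 1 and 2 in some genes, Mitf among them. Melan-a replicate 2 was the lowest of the 5 epithelial libraries for 31 of the 61 genes, a share that was not counted over all genes. Of the 61 genes, 47 were lower in it than in melan-a replicate 3, where 52.4% of all genes were. The 2 melan-a libraries were over 2 log2 units apart for 17 of the 61 genes, against 8.69% of all genes. Unc5c, a netrin receptor, was farthest apart, at 2.85 in replicate 2 and 7.54 in replicate 3. Replicate 2 also held the higher summed level of the fibroblast list (9 of 15 genes with a value), at 207 CPM against 27.0 in replicate 3, 34.5 to 50.8 in 4C11+, 2675 to 3689 in 4C and 2368 to 2708 in 4C11−. Of that list, Col3a1, Twist1, Twist2, Prrx2 and Acta2 were at 3 reads or fewer in every melan-a and 4C11+ library. The macrophage list (3 of 10 genes with a value) summed to 96.8 CPM in replicate 2, 12.7 in replicate 3 and 7.64 to 44.7 in the other lines. Summed levels of the melanocyte list (10 of 10 genes) were 1846 and 9143 CPM in melan-a replicates 2 and 3, 11341 to 13622 in 4C11+, 4.03 to 7.83 in 4C and 4.36 to 13.0 in 4C11−. A sum follows its most abundant genes, and not all genes of this list were lower in replicate 2. The Schwann and glial list (10 of 13 genes with a value) went the other way, at 1177 CPM in replicate 2 and 491 in replicate 3. It summed to 694, 695 and 1165 in 4C11+ replicates 1, 2 and 3, to 167 to 197 in 4C and to 115 to 169 in 4C11−. The part of these differences in the results below was not tested, and results that rest on replicate 2 are given with and without it.

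Single reads leave steps among the low values, and from these the depth was estimated. A quantile normalization would shift these steps, so the estimates are rough and the order of the libraries by depth is not established. Melan-a replicate 2 had the lowest estimate, 3.50 M reads, against 5.82 M for replicate 3. Yet 399 of all genes were at 0 reads in it, against 682 and 711 in 4C11+ replicates 1 and 2. The estimates were 4.07 to 5.47 M for the 4C11+ libraries, 5.67 to 7.08 M for 4C and 4.58 to 7.42 M for 4C11−. Over the 61 genes, the library medians were 4.35 and 5.24 log2 CPM in melan-a and 4.95 to 5.34 in 4C11+. In each mesenchymal-like library the median gene had 0 reads.

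**Figure D1:**
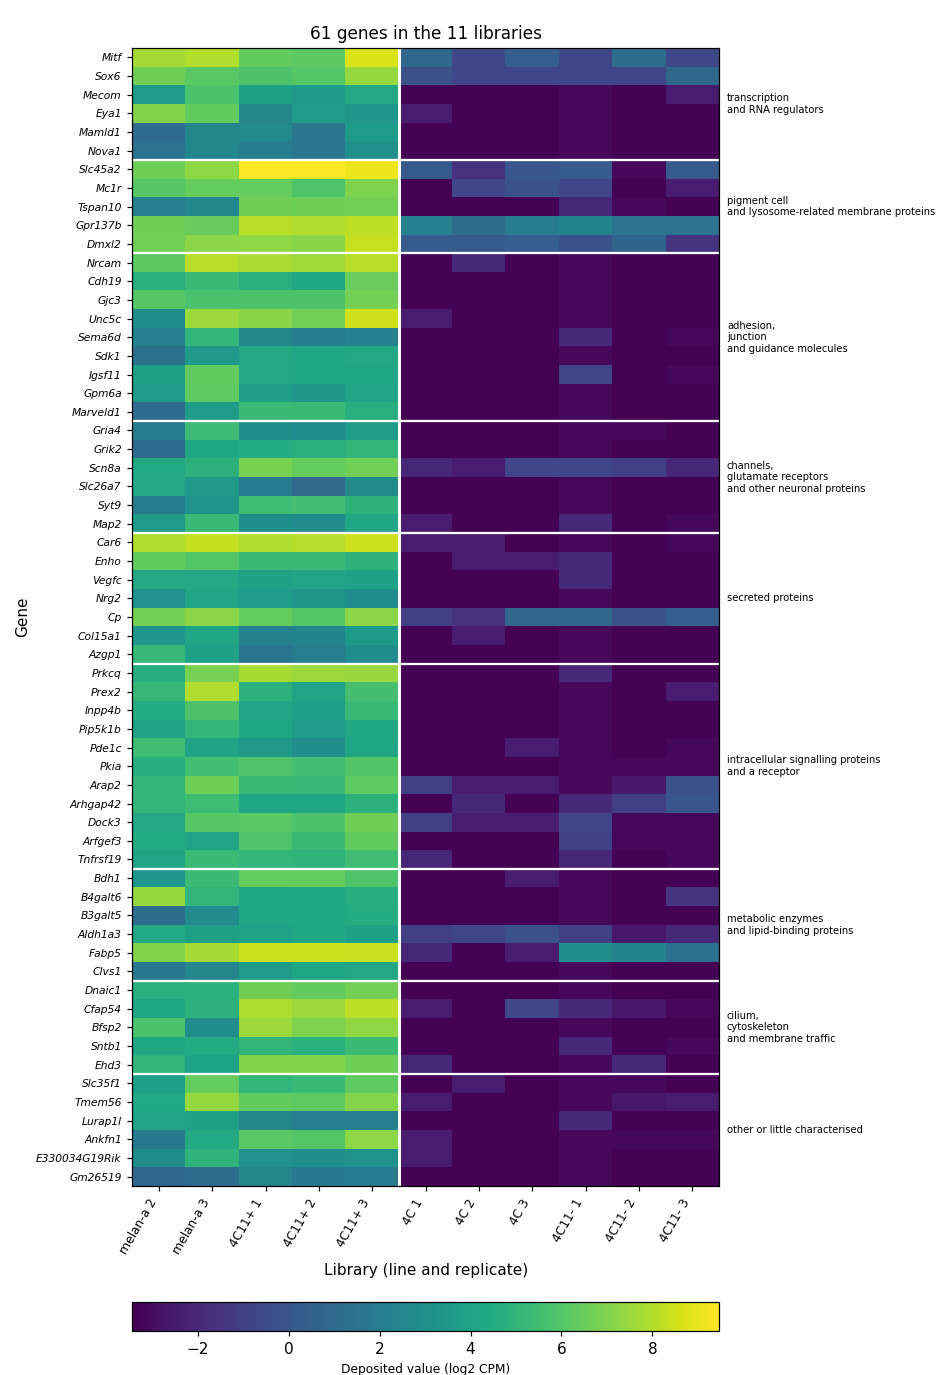
Deposited values (log2 CPM, colour scale) of the 61 genes (rows, grouped by role) in the 11 libraries (columns). All genes are bright in the 5 libraries left of the white line (melan-a and 4C11+) and dark in the 6 libraries right of it (4C and 4C11−), where Gpr137b and Fabp5 keep the most reads.

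Of the 61 genes, 60 are protein coding and 1, Gm26519, is a long intergenic noncoding RNA. The gap between the lowest epithelial and the highest mesenchymal-like library had a median of 5.14 log2 units and reached 10.39 on the deposited scale, where its lower end is mostly set by 0 to 3 reads and carries little information on size. Over all genes, 7.06% had every 4C and 4C11− library below every melan-a and 4C11+ library, which the rule requires of the 61. Just inside the threshold were Gpr137b (gap 4.04), Gm26519 (4.02) and Sema6d (4.01). Just outside it were S100b (3.96), Ggh (3.92) and Tnik (3.92).

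Most of the 61 genes were close to undetected in the mesenchymal-like lines. In every 4C and 4C11− library 47 of them had 3 reads or fewer, and 19 had 0 reads in all 6. For these 19, the mean of the epithelial lines was at least 2.93 to 7.47 log2 units above the value that 3 reads would have had in each mesenchymal-like library. The widest such bound was that of Gjc3, and the narrowest that of Gm26519. The counts of reads carry counting error only, and 0 reads does not show that a gene was silent.

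**Figure D2:**
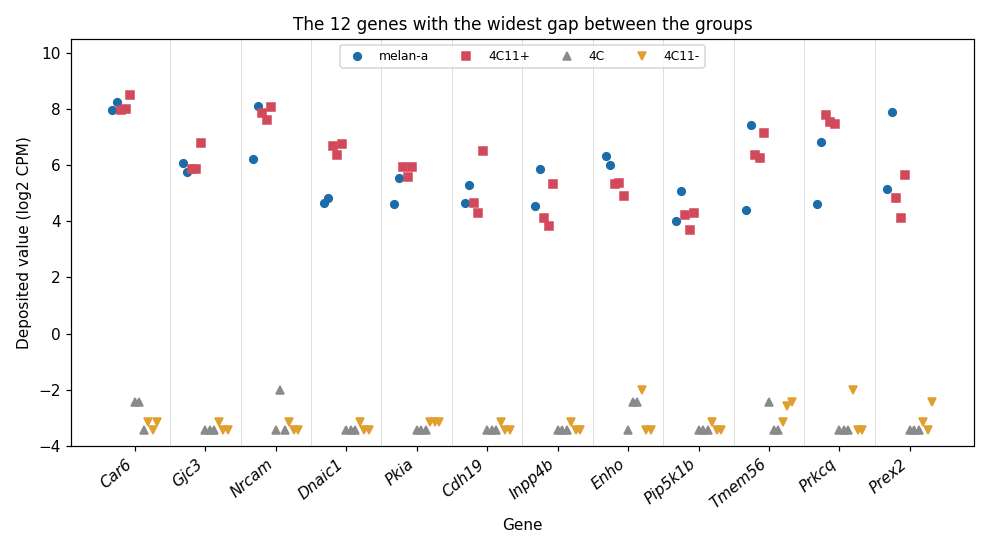
Deposited values (log2 CPM) of the 12 genes with the widest gap, with 1 point per library for melan-a (blue), 4C11+ (red), 4C (grey) and 4C11− (orange). All melan-a and 4C11+ points lie above all 4C and 4C11− points, which sit at the bottom of the scale at 0 to 2 reads.

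The gene with the widest gap was among the 7 secreted proteins. Car6, the carbonic anhydrase of saliva and milk (chr4:150187015-150201332, minus strand, GRCm38), was at 7.96 and 8.26 log2 CPM in melan-a and at 7.95, 8.01 and 8.50 in 4C11+. In 4C it had 1, 1 and 0 reads, and in 4C11− 0, 0 and 1. The 2 epithelial lines overlapped, and every mesenchymal-like library lay far below them. Per length, Car6 was the most abundant of the 61 genes in melan-a, at 7.25 log2 RPKM (CPM per kilobase of exon), and next to the top in 4C11+ at 7.29. Enho, which encodes the peptide hormone adropin, stood at 6.34 and 6.02 log2 CPM in melan-a and at 5.34, 5.37 and 4.89 in 4C11+, with 1 read at most in any mesenchymal-like library. Cp, the copper-carrying ferroxidase ceruloplasmin, was not off: 3 to 10 reads remained in each 4C and 4C11− library, against 6.78 and 7.20 log2 CPM in melan-a and up to 7.21 in 4C11+. The lymphangiogenic ligand Vegfc was even across the epithelial lines at 3.92 to 4.33 log2 CPM. Nrg2, a ligand of ERBB receptors, ranged from 2.85 to 4.10, Col15a1, a basement membrane collagen, from 2.32 to 4.21, and Azgp1, a lipid-mobilizing glycoprotein, from 1.60 to 5.23.

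Among the 9 adhesion, junction and guidance genes, none exceeded 3 reads in a mesenchymal-like library. Nrcam, of the L1 family (chr12:44328885-44601964, plus strand), reached 6.21 and 8.09 log2 CPM in melan-a and 7.84, 7.61 and 8.06 in 4C11+. Its only reads in the other lines were 2 in 4C replicate 2. The 2 melan-a values lay on either side of all 4C11+ values. Gjc3, the connexin of glial gap junctions (chr5:137953461-137963098, minus strand), was at 6.09 and 5.77 in melan-a and 5.86, 5.87 and 6.78 in 4C11+, with 0 reads in all 6 mesenchymal-like libraries. Cdh19, a cadherin known from Schwann cell precursors, was at 4.66 and 5.29 in melan-a and 4.65, 4.31 and 6.52 in 4C11+, again with 0 reads elsewhere. The other genes of the group are Unc5c, the semaphorin Sema6d, and the cell surface proteins Sdk1, Igsf11, Gpm6a and Marveld1. Apart from Unc5c they were between 1.05 and 6.35 log2 CPM over the 5 epithelial libraries.

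Of 5 pigment cell and lysosomal genes, all but Tspan10 had over 3 reads in some mesenchymal-like library, and so had Mitf and Sox6. Mitf (chr6:97807052-98021349, plus strand) was at 7.73 and 7.97 log2 CPM in melan-a and 6.38, 6.23 and 8.76 in 4C11+, so the lines overlapped. It kept 11, 5 and 8 reads in 4C and 3, 16 and 6 in 4C11−. Sox6, a SOXD transcription factor, likewise kept 3 to 13 reads in each of these libraries and was at 5.86 to 7.45 log2 CPM in the epithelial lines. Slc45a2, a transporter of the melanosome membrane, was at 6.63 and 7.25 log2 CPM in melan-a and 9.46, 9.45 and 9.14 in 4C11+, with 1 to 9 reads in the mesenchymal-like libraries. Per length it was the top gene of 4C11+ at 7.77 log2 RPKM. Mc1r, the melanocortin receptor that switches melanocytes to dark pigment (chr8:123407107-123410744, plus strand), was at 6.13 and 6.43 log2 CPM in melan-a and 6.44, 5.93 and 6.97 in 4C11+, with 0 to 5 reads elsewhere. Gpr137b, a lysosomal membrane protein, kept 16 to 29 reads in each mesenchymal-like library. Dmxl2, a regulator of the vacuolar proton pump, kept 4 to 12. A pseudogene of Gpr137b is annotated, and its reads may not be separable from those of the gene.

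Of the other transcription and RNA regulators, Mecom, Eya1, Mamld1 and Nova1 had 2 reads at most in any mesenchymal-like library. Mecom encodes a zinc finger factor and was at 3.57 to 5.83 log2 CPM in the epithelial lines. Mamld1, a mastermind-like coactivator, and Nova1, a splicing regulator of neurons, were near the lower limit of the rule, at 1.05 to 3.66 and 1.48 to 3.03.

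The largest group was that of 11 genes for intracellular signalling proteins and a receptor, Tnfrsf19. Of these 11 genes, 9 did not exceed 3 reads in any 4C or 4C11− library. Several act on phosphoinositides or small GTPases: Inpp4b removes a phosphate from phosphatidylinositol, Pip5k1b adds one, and Prex2 and Dock3 activate Rac. Inpp4b was at 4.53 and 5.88 log2 CPM in melan-a and 4.10, 3.84 and 5.31 in 4C11+, and Pip5k1b at 4.00 and 5.09 against 4.21, 3.70 and 4.29, both with 0 reads in 4C and 4C11−. Prex2 was at 5.14 and 7.91 in melan-a and 4.84, 4.12 and 5.64 in 4C11+. Prkcq, a protein kinase C, was at 4.61 and 6.84 in melan-a and 7.77, 7.54 and 7.46 in 4C11+, with a single read in 4C11− replicate 1. Pkia, an inhibitor of protein kinase A, was at 4.61 and 5.56 in melan-a and 5.93, 5.59 and 5.95 in 4C11+.

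Genes best known from neurons and from cilia were also present. The glutamate receptor subunits Gria4 and Grik2 ranged from 1.97 to 5.41 and from 1.05 to 5.01 log2 CPM in the epithelial lines. The sodium channel Scn8a, the only one of 6 channel and neuronal genes with over 3 reads in a mesenchymal-like library, was at 4.38 to 6.85. Dnaic1, an intermediate chain of axonemal dynein, was at 4.66 and 4.82 in melan-a and 6.68, 6.36 and 6.75 in 4C11+, with 0 reads in the other lines. Bfsp2, an intermediate filament protein of the lens, had 0 reads there too, and its melan-a libraries disagreed, at 5.79 and 2.95.

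The comparison between 4C11+ and melan-a asks whether the genes stood at the same level in the metastatic line as in the nonmalignant one. The rule placed both lines high but did not set which of them was higher. By limma over all 14272 genes, with a shared spread over the 4 lines, 12 of the 61 genes were higher in 4C11+ (19.7%, against 8.39% of all genes) and 2 were lower (3.28%, against 7.52%) at an adjusted p under 0.05. Over all genes, 15.9% passed in either direction. The difference over the 61 genes had a median of 0.25 log2 units (0.03 over all genes) and ran from -3.58 to 4.29. All 4C11+ libraries were above both melan-a libraries for 22 of the 61 genes (24.6% of all genes) and below both for 8 (22% of all genes). Differences under 1 log2 unit in size were found for 30 of the 61, or 49.2%, against 69.2% of all genes. Leaving out melan-a replicate 2 lost most of the calls of higher genes. It leaves 1 melan-a library, so a difference that rests on replicate 2 and the loss of a replicate cannot be told apart. Leaving out 4C11+ replicate 1 gave 4 genes higher in place of 12. Over all genes it gave 1089 calls in either direction in place of 2270. Leaving out 4C11+ replicate 2 gave 5 genes higher, and 1145 calls over all genes. Values at or near 0 reads in 4C and 4C11− also enter the shared fit, so its spread need not be that of the epithelial libraries. A fit of the 5 epithelial libraries alone, chosen after the data were seen, called 13 genes higher (5.45% of all genes) and 3 lower (4.68% of all genes). In it Bfsp2 and Marveld1 missed the threshold (limma adjusted p = 0.0533 and 0.0576), while Slc45a2, Arfgef3 and Fabp5 passed as higher and Lurap1l as lower. The standard error was larger in that fit for 13 of the 61 genes. Its median over the 61 genes was 0.528 in that fit and 0.644 in the shared fit.

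Tspan10, a tetraspanin of pigment cells (chr11:120442644-120446950, plus strand), differed most. It was at 2.17 and 2.59 log2 CPM in melan-a and 6.65, 6.63 and 6.72 in 4C11+, without overlap. The difference was 4.29 log2 units (SE 0.53, 95% interval 3.12 to 5.45, limma adjusted p = 0.000309). Eya1, a transcriptional coactivator with phosphatase activity, moved the other way, from 7.03 and 6.34 in melan-a to 2.42, 3.62 and 3.27 in 4C11+. It was lower by limma by -3.58 log2 units (SE 0.58, 95% interval -4.84 to -2.32, adjusted p = 0.00184). Of the 14 calls, these 2 alone were kept in all the alternatives in which the gene was tested.

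Both genes of the ciliary axoneme were higher in 4C11+. Cfap54 was at 4.21 and 4.86 log2 CPM in melan-a and 7.88, 7.55 and 8.19 in 4C11+, a difference of 3.34 (95% interval 1.80 to 4.87, limma adjusted p = 0.00881). Dnaic1 was higher by 1.85 (0.90 to 2.80, limma adjusted p = 0.0149). In the same group, Bfsp2 was higher by 2.91 (limma adjusted p = 0.016) and Ehd3, a protein of endosomal recycling, by 2.34 (0.027). Without melan-a replicate 2, which leaves 1 melan-a library, the differences were 3.01 for Cfap54, 1.77 for Dnaic1, 2.87 for Ehd3 and 4.33 for Bfsp2. Without melan-a replicate 3 that of Bfsp2 was 1.49. The calls of Dnaic1, Ehd3 and Bfsp2 were lost without 4C11+ replicate 1, and those of Dnaic1 and Ehd3 without 4C11+ replicate 2.

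The remaining genes higher in 4C11+ were of mixed roles. Syt9, a synaptotagmin of regulated secretion, was at 1.97 and 3.20 log2 CPM in melan-a and 5.44, 5.62 and 4.93 in 4C11+ (difference 2.74, limma adjusted p = 0.00662). Ankfn1 was higher by 3.37 (0.0115), with melan-a at 1.77 and 4.43. Marveld1, a membrane protein with a MARVEL domain, was higher by 2.77 (0.0213), the glycosyltransferase B3galt5 by 2.34 (0.0208), and Scn8a by 2.05 (0.0323). Clvs1, a lipid-binding protein of clathrin-coated vesicles, was higher by 1.91 (0.0339) and Gpr137b by 1.56 (0.0197), each with its adjusted p from the same fit. Without melan-a replicate 2, which leaves 1 melan-a library, the differences were 2.13 for Syt9, 2.04 for Ankfn1 and 1.48 for Marveld1. They were 1.54 for B3galt5, 1.82 for Scn8a, 1.52 for Clvs1 and 1.65 for Gpr137b. The calls of Marveld1, B3galt5, Scn8a, Clvs1 and Gpr137b were lost without 4C11+ replicate 1 and without 4C11+ replicate 2. The exons of Clvs1 share 2302 bases with those of Asph on the opposite strand, and the strand setting of the counting is not stated. The same limit holds for Cp, which shares 108 exonic bases with Hps3, for Dock3, with 1082 in 4930524O07Rik, and for Mc1r, with 653 in Gm38092. The other gene that was lower in 4C11+ was Azgp1, at 5.23 and 3.92 in melan-a and 1.60, 2.09 and 2.85 in 4C11+. It fell by 2.40 log2 units (95% interval -3.75 to -1.04, limma adjusted p = 0.0228). The call was lost without melan-a replicate 2, where the difference was -1.74, without 4C11+ replicate 1 or 2, and with the replicate block, and its adjusted p reached 0.217 over the alternatives.

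**Figure D3:**
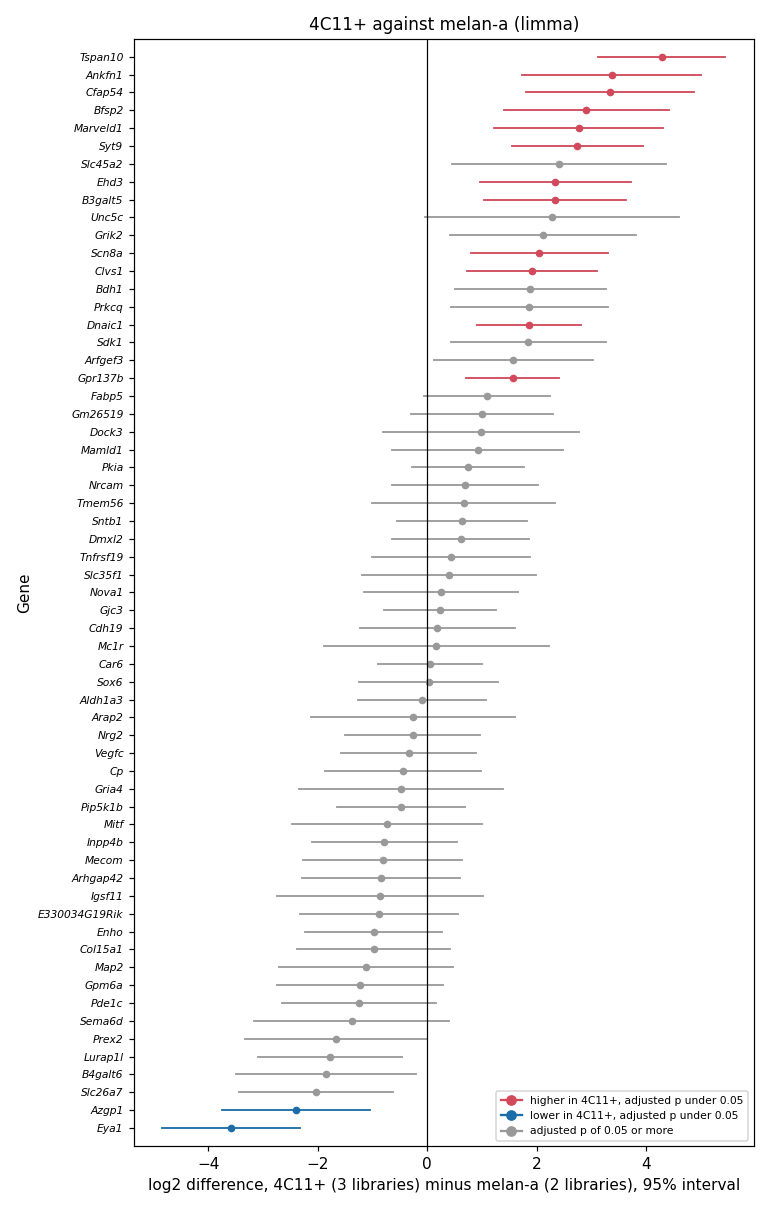
Log2 difference of 4C11+ (3 libraries) minus melan-a (2 libraries) for each of the 61 genes, with the 95% interval from limma. Of the genes, 12 are higher in 4C11+ (red), 2 are lower (blue) and 47 did not pass an adjusted p of 0.05 (grey), most of them with intervals that reach past 1 log2 unit.

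For the 47 genes without a call the intervals were wide, and equal levels are shown for few. The median distance from the difference to the end of its 95% interval was 1.41 log2 units over the 61 genes. In the shared fit Car6 alone had its whole interval within 1 log2 unit of 0 (0.05, -0.90 to 0.99), and 15 genes had it within 2. In the fit of the epithelial libraries alone, 3 genes (Car6, Mc1r and Aldh1a3) had it within 1 and 20 within 2. The intervals that follow are from the shared fit. Sox6 (0.03, -1.25 to 1.30), Aldh1a3, a retinaldehyde dehydrogenase (-0.10, -1.27 to 1.08), Mc1r (0.17, -1.88 to 2.22) and Cdh19 (0.18, -1.24 to 1.60) had the smallest differences with Car6, that of Sox6 being the smallest. Mitf differed by -0.73 (-2.47 to 1.01, limma adjusted p = 0.573) and Nrcam by 0.68 (-0.65 to 2.02, limma adjusted p = 0.481). Slc45a2, with 4C11+ above melan-a in all libraries, missed the threshold at a difference of 2.41 (0.45 to 4.36, limma adjusted p = 0.0922), and passed it in the fit of the epithelial libraries alone (limma adjusted p = 0.00288).

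The comparison between 4C11− and 4C asks whether the genes were equally low in the 2 mesenchymal-like lines, and few of them had reads enough to tell. In all 3 4C libraries 32 of the 61 genes were at 0 reads, and in all 3 4C11− libraries 25 were. Over 3 reads in some library were found for 10 genes in 4C and 11 in 4C11−. By limma, 1 of the 61 genes was higher in 4C11− (1.26% of all genes) and 0 were lower (0.406% of all genes), against 1.67% of all genes in either direction, and 3 of the 61 had an unadjusted p under 0.05. The gene that was higher was Fabp5, a fatty acid-binding protein known from epidermis. It had 2, 0 and 1 reads in 4C and 34, 39 and 17 in 4C11−, without overlap (limma adjusted p = 0.000334). Relative to the estimated depth, its summed reads, 3 in 4C and 90 in 4C11−, gave a ratio of 30.9. The exact 95% interval of 10.2 to 153 covers counting error only, not the error of the depths. In the epithelial lines Fabp5 was at 7.0 and 7.74 log2 CPM in melan-a and 8.47, 8.49 and 8.40 in 4C11+, above 4C11− in every library. A near copy, Fabp5l2, is annotated, so reads of the 2 may have been shared. The other genes with over 10 reads in some mesenchymal-like library were Gpr137b, Mitf, Sox6 and Dmxl2, and the reads of these 4 overlapped between 4C and 4C11−.

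**Figure D4:**
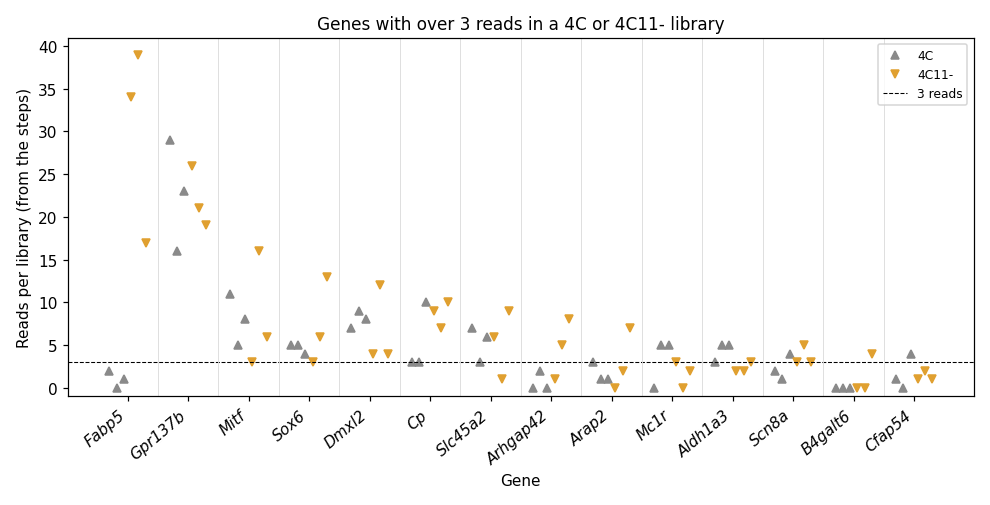
Reads per library, counted from the steps of single reads, of the 14 genes with over 3 reads in some 4C (grey) or 4C11− (orange) library. Fabp5 has 0 to 2 reads in 4C and 17 to 39 in 4C11−, and Gpr137b has 16 to 29 in all 6 libraries.

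The 61 genes shared some features that the rule did not use. They lay on 20 chromosomes, with 7 on chromosome 4 and 6 on chromosome 3. They were long: the genomic span had a median of 124 kb, against 19.3 kb over all 14248 annotated genes, and 36 of the 61 (59.0%) were over 100 kb against 11.1% of all. Among protein-coding genes the medians were 127 and 24.6 kb. Their exonic length differed less, with medians of 5808 and 4067 bases.

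**Figure D5:**
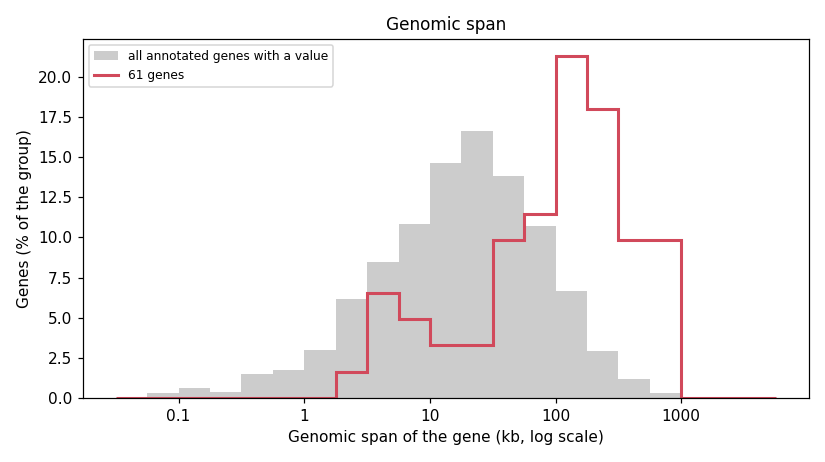
Distribution of the genomic span (kb, log scale) as a percentage of genes, for the 61 genes (red line) and all annotated genes with a value (grey bars). The 61 genes peak above 100 kb and all genes between 10 and 100 kb.

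Only 3 pairs of the genes lay within 1 Mb of each other. Gjc3 and Azgp1 are divergent neighbours on chromosome 5, 18.4 kb apart with no annotated gene between them. Between the epithelial lines Azgp1 was lower in 4C11+ and Gjc3 differed by 0.24 (-0.78 to 1.27), and these differences were not tested against each other. Dnaic1 and Enho on chromosome 4 converge and share 15 exonic bases on opposite strands. Vegfc and Gpm6a on chromosome 8 are 768 kb apart, and the only gene between them with a value, Spcs3, was at 5.13 to 7.23 log2 CPM in all lines.

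RefSeq promoter windows were at hand for 44 of the 61 genes and for 10087 of all genes. Of the 44, 29 (65.9%) had a window with a ratio of observed to expected CpG of 0.6 or more, against 76.9% of all genes. CACGTG was found for 5 of the 44 genes (11.4%, against 11.7% of all) and CATGTG for 5 (11.4%, against 10.4%). TCATGTG, a longer form that holds CATGTG and is present in the Mc1r and Tspan10 windows shown above, was found for 3 (6.82%, against 2.67%). The longer form TCACGTG was found for 1 (2.27%, against 7.01%). ACAAAG and ACAATG, letters of SOX sites, were each found for 8 (18.2%, against 16.2% and 9.06%). CACCTG was found for 14 (31.8%, against 20.3%), TGANTCA of AP-1 for 5 (11.4%, against 6.04%) and GCCNNNGGC of TFAP2 for 10 (22.7%, against 29.5%). A gene counted if any of its windows held the letters. The 44 genes had 65 windows, more per gene than the 12935 windows of all genes. By window, the shares were 23.1% against 17.5% for CACCTG, 7.69% against 5.03% for TGANTCA and 15.4% against 7.55% for ACAATG. Both strands were read, and the counts are letters in a window, not bound sites.

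Further genes of the lineage were taken from lists that were set with earlier results of these data known. The counts from these lists are therefore not independent of the data. Of 29 further pigment lineage genes with a value, 21 were lower in 4C and 4C11− than in melan-a and 4C11+ by limma (15.3% of all genes were), 1 was higher (14.3% of all genes) and 7 did not pass. Over all genes, 29.7% passed in either direction. Their median difference was -2.49 log2 units, against -0.09 over all genes. The receptor Erbb3 was at 7.17 and 8.05 log2 CPM in melan-a, 6.83 to 8.17 in 4C11+ and -0.70 to 3.41 in the mesenchymal-like lines. Pax3, a transcription factor that acts upstream of Mitf, differed by -1.67 (limma adjusted p = 0.000122) and Gpnmb, a glycoprotein of melanosomes, by -3.10 (limma adjusted p = 0.000147), and both were well detected in all lines. The gene that was higher was Lef1, a transcription factor of the Wnt pathway, and without melan-a replicate 2 the number higher was 2. Of 9 further Schwann and glial genes, 4 were lower (Erbb3, S100b and Mbp among them), 2 were higher (Egr2 and Prx) and 3 did not pass, with a median of -1.45.

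Genes that define epithelia moved in both directions. Of 17 epithelial junction genes with a value, none is among the 61, 3 were lower in the mesenchymal-like lines (Tjp3 and Pkp2 among them), 4 were higher (Krt18, Pkp1, Ocln and Jup) and 10 did not pass, with a median of 0.56. Over all genes, 15.3% were lower and 14.3% higher. Cdh1, which encodes E-cadherin, was at 0.06 to 1.21 log2 CPM in melan-a and -0.70 to 0.44 in 4C11+, and between -2.01 and -0.70 in 4C. Its highest values were in 4C11−, at 0.42 to 1.36, and the pooled difference was -0.50 (limma adjusted p = 0.454). Krt18 had 3 reads or fewer in every melan-a and 4C11+ library and was at 7.64 to 9.40 log2 CPM in 4C and 4C11−. The name epithelial for melan-a and 4C11+ is that of the study, and Cdh1 and Krt18 were low in both of these lines. Of 9 transcription factors of the epithelial-mesenchymal transition, 5 were higher in 4C and 4C11− (Snai1, Twist1, Twist2, Zeb1 and Foxc2), Snai2 was lower and 3 did not pass, with a median of 3.11. Of 9 fibroblast genes 8 were higher and Postn was lower, and 0 were lower without melan-a replicate 3. The median of the fibroblast genes was 4.89, with Twist2, at 0 reads in all epithelial libraries, set to its bound at 3 reads per library (7.25 as fitted).

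The families of the 2 leading genes were mixed. Of 12 further genes of the L1 family and its partners, 4 were lower in the mesenchymal-like lines, 3 were higher and 5 did not pass, with a median of 0.02. For this list and the carbonic anhydrases below, the shares over all genes were 15.3% lower and 14.3% higher. L1cam itself, a relative of Nrcam, was at 6.42 and 5.70 log2 CPM in melan-a, 3.32 to 4.07 in 4C11+ and -3.44 to 1.01 in the mesenchymal-like lines. Of 5 further carbonic anhydrases, Car14 (-1.93, limma adjusted p = 0.00235) and Car13 (-1.09, limma adjusted p = 0.0123) were lower and 3 did not pass, with a median of -0.73. Without melan-a replicate 2, 1 of the 5 was lower and 1 was higher. Both remained well detected in the mesenchymal-like lines, Car14 at 4.03 to 5.61 log2 CPM and Car13 at 4.39 to 5.70, where Car6 had 1 read at most.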

How the data were processed

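Total RNA libraries of 4 murine lines were compared, 2 of melan-a and 3 of each other line. The authors trimmed reads with Trimmomatic, aligned them with STAR to GRCm38 (Ensembl 90), assigned them to genes with Rsubread and applied voom of limma. Tool versions, and the strand setting of the counting, are not given in the sources used here. What was deposited is log2 CPM, computed by the authors. All libraries share the highest value of 13.69, as after a quantile normalization, and no further normalization was applied. Reads per library were inferred from the steps among the low values, and the depth from the step at 40 reads. A quantile normalization would shift that step, so the depths are rough. A value was treated as off at 3 reads or fewer.

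Tests used limma 3.58.1 (R 4.3.3), a mean per line, a variance trend, and the Benjamini-Hochberg method over all genes. The fit was tested on simulated data. Python 3.11.15 gave the counts. Spans come from GENCODE M21. RPKM was computed here from the deposited log2 values and the exonic length.

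The genes and lists were chosen with earlier results of these data known, and roles were assigned once the genes were known. Named were Car6 and Nrcam, the 12 genes with the widest gap, up to 10 called genes per direction, the 5 smallest differences between melan-a and 4C11+, 3 on each side of the threshold, the 5 highest in each epithelial line, close neighbours, listed genes and examples of a role by level. Alternatives covered normalization, a filter on low values, the variance model, the replicate block, the threshold and each library left out. Fits of only the 2 lines compared were added after the data were seen. The qPCR, survival and network data of the study were not analysed here. Some listed genes are not reported here by name.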

Additional observations from a re-analysis of the deposited data

How the results depend on the processing

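The rule found 105 genes at a threshold of 3, 38 at 5, and 61 to 102 with each library left out, the most without melan-a replicate 2. Genes of the 61 higher in 4C11+ than in melan-a numbered 4 when genes with a mean under 1 were left out, which removes 41 of the 61, and 2 to 14 with each library left out. Those lower numbered 4 with quantile normalization again, 4 with no mean-variance trend, 0 with genes of a mean under 1 left out, and 1 to 4 with each library left out (4 without 4C11− replicate 1, 1 without 4C11+ replicate 1 or 2). Fits of only the lines compared, added after the data were seen, gave 13 higher and 3 lower, with 1446 calls over all genes, and 143 in 4C11− against 4C. None of the called differences turned in direction. Over all genes, leaving out each library gave 1089 to 2864 calls in 4C11+ against melan-a (2270 with all libraries, and 1185, 1089 and 1145 without melan-a replicate 2, 4C11+ replicate 1 and 4C11+ replicate 2), 93 to 320 in 4C11− against 4C (238, and 93, 113, 97 and 155 without 4C replicate 2, 4C replicate 3, 4C11− replicate 2 and 4C11+ replicate 1), and 3383 to 4854 between the mesenchymal-like and epithelial lines (4232). With genes of a mean under 1 left out, 125 were called in 4C11− against 4C, and 1 epithelial junction gene was lower. Leaving out each library gave 1 to 1 gene higher in 4C11− than in 4C, 1 to 2 pigment lineage genes higher and 20 to 22 lower, and 4 to 6 junction genes higher and 3 to 3 lower.

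Same-numbered libraries of different lines correlated at -0.226 to 0.388 in their deviations from the line means, over 0.1 in 8 of 15 pairs. Differently numbered libraries correlated at -0.416 to 0.340, over 0.1 in 11 of 30 pairs, and 4 of 11 libraries correlated best with their own number. Deviations within a line sum to 0, so the correlations are tied to each other and cannot show whether the numbers pair the libraries. The replicate block gave 10 genes higher and 1 lower in 4C11+ than in melan-a, in place of 12 and 2, and lost Scn8a, Clvs1 and Azgp1. The 2 melan-a libraries and estimated depths of 3.50 to 7.42 M reads limit what could be called. Values at 3 reads or fewer carry no size of a difference.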
